A study of Saccharomyces cerevisiae with 48 samples.

Results

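Chromosomes III and VI are small chromosomes of budding yeast (Saccharomyces cerevisiae) with well-mapped replication origins, and only III carries the origin deletions of this study. They were followed through meiotic S phase as relative copy number at 218 of the 4568 listed positions, which lie 2.5 kb apart. Chromosome III holds 118 of them, from 2500 to 305000, and chromosome VI holds 100, from 15000 to 267500 (sacCer2 coordinates). Members were taken by chromosome alone, not by any measured value. Inside these spans 4 positions of III (7500, 10000, 87500 and 90000) and 2 of VI (140000 and 142500) are not listed.

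The strains came in 3 backgrounds, DDK OP, tof1∆ and wild type, each as an ars∆ and an ARS+ version, with 1 culture for each of the 6. All were synchronized meiotic cultures in 2% potassium acetate at 30 °C after pre-growth in SPS, and total genomic DNA was sequenced at 1, 1.5, 2, 2.5, 3, 3.5 and 4 hr, times that the labels assign to meiotic S phase. The 6 samples labelled 0 hr, in meiotic G1, have no column, so 42 of 48 samples have values. DDK OP strains overproduce DDK, and tof1∆ strains lack TOF1. In the ars∆ strains, as far as the study is known, origins that normally fire had been deleted on the left arm of III. Which origins were removed and how DDK was overproduced are not given in the sources used here, and neither alteration was checked in the data. That each strain's 7 times came from 1 culture is taken from the shared label and is not stated.

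An origin, or ARS, is a site where replication starts and from which 2 forks move apart. DNA near an early origin is copied first, so during S phase it is present in more copies than late DNA, and the excess vanishes once the late DNA is copied too. DDK, the Cdc7-Dbf4 kinase, activates origins, and Tof1 is a part of the fork that keeps this kinase with it. When origins are removed, the DNA around them is copied by forks from neighbouring origins, and later. In mitotic cells ARS305, ARS306, ARS606 and ARS607 fire early, ARS601 and ARS603 fire late, and the origins at the silent locus HML are normally inactive. ARS numbers below mark the 10-kb window in which an origin lies by its rounded position from general knowledge, since the files name no origins.

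The deposited values are ratios, from 0.643 to 1.45 on III and from 0.852 to 1.42 on VI. Each was divided by the median ratio of its sample over all 16 chromosomes and put on the log2 scale, here called the level. The change over S phase, called the rise, is the mean level at 2 to 4 hr minus the level at 1 hr of the same culture. Read counts were not in the files, so the depth is unknown. Neighbouring positions correlated with a median r of 0.48 at 1 hr and positions 2 steps apart with 0.050, so adjacent positions are not independent.

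Chromosome VI rose around ARS606, ARS607 and ARS608, to the right of its centromere, in all 6 cultures. It fell behind the genome around ARS601 on its left arm, also in all 6. Closer to the centromere the rise was not above 0 in every culture. At 130001 to 140000 it was negative in tof1∆ ars∆ and in tof1∆ ARS+. The ARS606 window (160001 to 170000) rose by 0.075 ± 0.030 (SD, n = 6 cultures) and the ARS607 window (190001 to 200000) by 0.074 ± 0.037. The ARS608 window (210001 to 220000) rose by 0.055 ± 0.026. All 6 cultures were above 0 in each of these 3 windows. The highest mean on the chromosome lay between the 2 early origins, at 170001 to 180000, with 0.088 ± 0.045 (SD, n = 6). The ARS601 window (30001 to 40000) fell by 0.091 ± 0.019, and the window to its right (40001 to 50000) fell by 0.070 ± 0.033, with 0 of 6 cultures above 0 in either. The windows nearer the left end varied, at -0.043 ± 0.058 and -0.040 ± 0.044, and wild type ARS+ was above 0 in both. The ARS603 window (60001 to 70000) kept pace with the genome, with a rise of -0.0053 ± 0.011. These are descriptions along the chromosome, without a test.

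**Figure D1:**
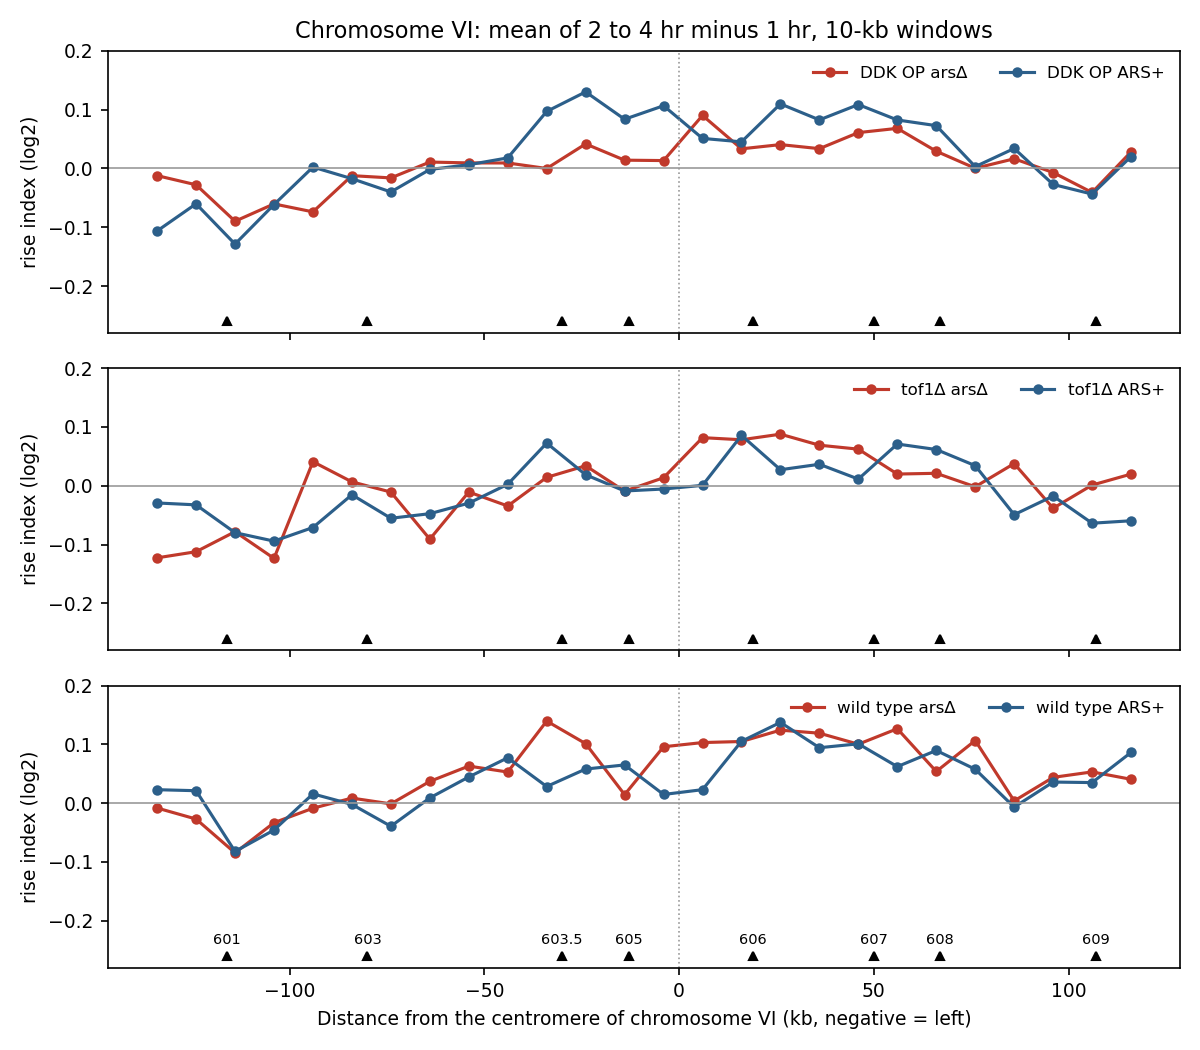
Rise (mean log2 level at 2 to 4 hr minus 1 hr) of the 10-kb windows of chromosome VI against distance from the centromere in kb, with ars∆ in red and ARS+ in blue, 1 panel per background, and triangles at the listed origins. Both lines of a panel run low near ARS601 on the left and high near ARS606 and ARS607 on the right.

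The levels at single times show the same order. In the ARS606 window the mean of the 6 cultures was 0.12 ± 0.051 at 1 hr, 0.18 ± 0.023 at 2 hr, 0.23 ± 0.042 at 3 hr and 0.16 ± 0.066 at 4 hr (SD, n = 6). In the ARS601 window it was 0.095 ± 0.063 at 1 hr, 0.059 ± 0.065 at 2 hr, -0.024 ± 0.046 at 3 hr and -0.023 ± 0.056 at 4 hr (SD, n = 6). Near the early origin the level was thus highest in mid S phase, while near the late one it sank and stayed low.

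The mean level of the ARS606 and ARS607 windows minus that of the ARS601 and ARS603 windows served as a clock for each culture that does not involve chromosome III. At 1 hr it lay between -0.058 (DDK OP ARS+) and 0.063 (tof1∆ ARS+). It was highest at 3 hr in DDK OP ars∆ (0.18), tof1∆ ars∆ (0.19), tof1∆ ARS+ (0.22) and wild type ars∆ (0.23). In wild type ARS+ it was highest at 3.5 hr (0.20), and in DDK OP ARS+ it stood at 0.11 at both 2.5 hr and 4 hr, with 0.059 at 3.5 hr between. Differences in this timing between cultures were not tested.

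The rise of the whole of chromosome VI did not differ detectably with ars deletion. Its rise was 0.0058 in DDK OP ars∆ against 0.022 in DDK OP ARS+. In tof1∆ it was -0.00076 in ars∆ against -0.0084 in ARS+, and in wild type 0.052 in ars∆ against 0.038 in ARS+. The mean difference was 0.0018 ± 0.015 (SD, n = 3 pairs, exact two-sided sign-flip permutation p = 1; lower in 1 of 3 pairs), where the smallest p that 3 pairs allow is 0.25. Across its 26 windows, the profiles of ars∆ and ARS+ cultures correlated with r between 0.53 and 0.80 (9 pairings of cultures, median 0.71), a description over windows that share libraries and neighbours. On the mean level of 1 to 4 hr, without subtraction, the pairs differed more. The difference of VI was then -0.037 in DDK OP, 0.054 in tof1∆ and 0.069 in wild type (mean 0.029 ± 0.057, SD, n = 3 pairs).

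The left region of chromosome III, the first 100 kb with 36 listed positions, had a negative rise in all 3 ars∆ cultures and a positive one in all 3 ARS+ cultures. In wild type ars∆ its level was 0.039 at 1 hr, 0.025 at 1.5 hr, 0.097 at 2 hr, -0.0072 at 2.5 hr, -0.11 at 3 hr, -0.15 at 3.5 hr and -0.12 at 4 hr. In wild type ARS+ it was 0.019, 0.0093, 0.069, 0.065, 0.069, 0.11 and 0.075 at the same times. The 2 wild type cultures ran close to each other up to 2 hr and parted from 2.5 hr on.

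In tof1∆ ars∆ the left region was at 0.11 at 1 hr, 0.11 at 1.5 hr, 0.093 at 2 hr, 0.019 at 2.5 hr, -0.098 at 3 hr, -0.093 at 3.5 hr and -0.091 at 4 hr. In tof1∆ ARS+ it was 0.038, 0.037, 0.056, 0.090, 0.084, 0.024 and -5.4e-05. Here the ars∆ culture started above its ARS+ partner and was below it from 2.5 hr on. In DDK OP ars∆ it was 0.086, 0.054, -0.0092, 0.034, 0.019, -0.050 and -0.044 at these times, and in DDK OP ARS+ 0.12, 0.097, 0.13, 0.16, 0.18, 0.11 and 0.11. The DDK OP ars∆ culture was below its partner at all 7 times, and the gap widened at 2 hr.

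**Figure D2:**
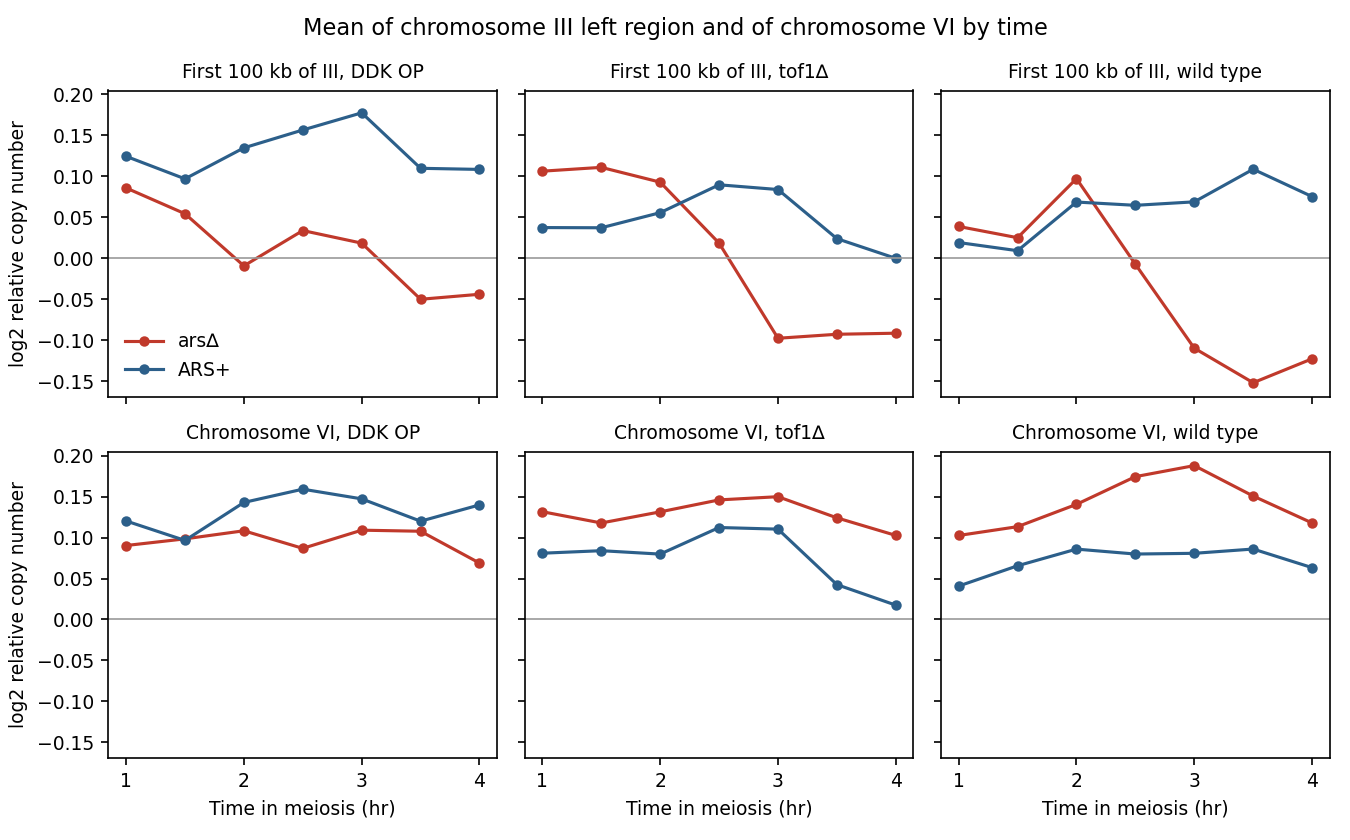
Mean log2 level of the first 100 kb of chromosome III (top) and of all of chromosome VI (bottom) against time in meiosis in hr, with ars∆ in red and ARS+ in blue and 1 culture per line. The left region of III ends below 0 in all 3 ars∆ cultures, whereas chromosome VI stays above 0 in all 6.

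The first time at which the left region lay at least 0.05 below its 1 hr level and stayed there was 2 hr in DDK OP ars∆, 2.5 hr in tof1∆ ars∆ and 3 hr in wild type ars∆. No ARS+ culture met this mark, which was chosen after the values were seen and carries no test. The order hangs on small margins. At 2.5 hr DDK OP ars∆ stood at -0.052 from its 1 hr level, just past the mark, and wild type ars∆ at -0.046, just short of it. The difference ars∆ minus ARS+ at 2 hr, with the 1 hr difference subtracted, was -0.11 in the DDK OP pair, -0.032 in the tof1∆ pair and 0.0090 in the wild type pair. At 3 hr the 3 pairs stood at -0.12, -0.25 and -0.20. At 3.5 hr they stood at -0.12, -0.19 and -0.28, so the order of the pairs at 2 hr was turned round later. With 1 pair per background, the order of the backgrounds was not tested.

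Over S phase the rise of the left region was -0.096 in DDK OP ars∆ against 0.013 in DDK OP ARS+. It was -0.14 in tof1∆ ars∆ against 0.013 in tof1∆ ARS+, and -0.098 in wild type ars∆ against 0.058 in wild type ARS+. The ars∆ cultures averaged -0.11 ± 0.025 and the ARS+ cultures 0.028 ± 0.026 (SD, n = 3 each), and the groups did not overlap. The paired difference was -0.14 ± 0.026 (SD, n = 3 pairs, lower in 3 of 3), with the smallest exact sign-flip p possible, 0.25. On the mean level of 1 to 4 hr, without subtraction, it was smaller, -0.083 ± 0.039 (SD, n = 3 pairs, lower in 3 of 3, exact p = 0.25), and -0.040 in the tof1∆ pair. Relative to chromosome VI of the same samples, which cancels the scaling of a sample, it was -0.14 ± 0.042 (SD, n = 3 pairs, exact p = 0.25), with -0.093 in DDK OP, -0.16 in tof1∆ and -0.17 in wild type.

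The right part of III, from 150 kb on with 63 positions, showed no such shift. Its rise averaged -0.022 ± 0.020 in ars∆ and -0.014 ± 0.021 in ARS+ cultures (SD, n = 3 each). The paired difference was -0.0082 ± 0.014 (SD, n = 3 pairs; 2 of the 3 were lower; exact p = 0.50), and its sign turned under 3 other ways of summarising the times, 3 hr minus 1 hr and the means of 1 to 4 hr and of 2 to 4 hr without subtraction. The 19 positions between the 2 stretches, which hold the centromere, were intermediate, with -0.058 ± 0.016 (SD, n = 3 pairs), a stretch described without a test.

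**Figure D3:**
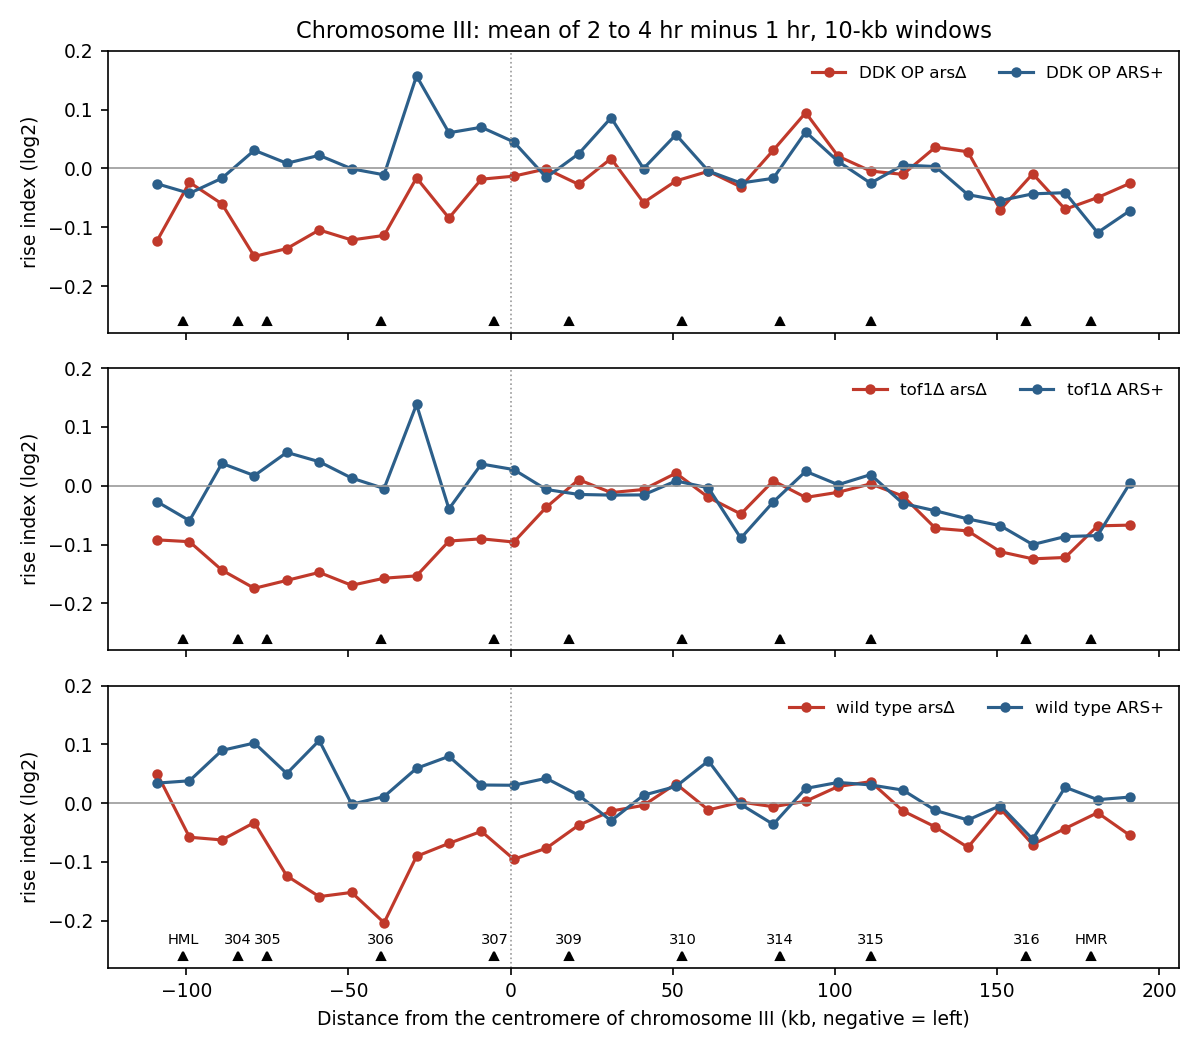
Rise (mean log2 level at 2 to 4 hr minus 1 hr) of the 10-kb windows of chromosome III against distance from the centromere in kb, with ars∆ in red and ARS+ in blue, 1 panel per background, and triangles at the listed origins. The lines part over the left arm and lie closer together to the right of the centromere.

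Window by window, the windows called lower in ars∆ formed a continuous stretch of 60 kb on the left arm, from 30001 to 90000. Limma called 6 of the 31 windows of III and 0 of the 26 of VI at an adjusted p of at most 0.05, all lower in ars∆, where the whole genome had the same 6 calls among 1174 windows (0.511%). The ARS305 window (30001 to 40000) rose by -0.15, -0.17 and -0.033 in DDK OP, tof1∆ and wild type ars∆, against 0.031, 0.017 and 0.10 in their ARS+ partners. Its groups averaged -0.12 ± 0.075 in ars∆ and 0.050 ± 0.046 in ARS+ (SD, n = 3 each) and did not overlap, and limma gave a difference of -0.17 (SE 0.025, adjusted p = 0.0037). The ARS306 window (70001 to 80000) rose by -0.11, -0.16 and -0.20 in the same ars∆ cultures, against -0.011, -0.0047 and 0.011 in ARS+. Limma gave it -0.16 (SE 0.027, adjusted p = 0.012). In ARS+ cultures this window thus kept pace with the genome between 1 hr and the later times, and in ars∆ cultures it fell behind.

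The 3 windows between these origins hold no listed origin and passed too. Limma gave -0.18 (SE 0.026, adjusted p = 0.0037) at 40001 to 50000, -0.19 (SE 0.029, adjusted p = 0.0037) at 50001 to 60000 and -0.15 (SE 0.025, adjusted p = 0.0096) at 60001 to 70000. At 50001 to 60000 the level of wild type ars∆ was 0.083 at 1 hr, 0.11 at 2 hr, -0.12 at 3 hr and -0.17 at 4 hr. The lowest difference, -0.20 (SE 0.030, adjusted p = 0.0037), was at 80001 to 90000, next to the gap, where only 2 positions are listed. There wild type ars∆ was already at -0.21 at 1 hr, and the rise takes this starting level out. The level of this window also jumped between times, which the rise does not take out. DDK OP ARS+ was at 0.21 at 2 hr, -0.051 at 2.5 hr and 0.24 at 3.5 hr. DDK OP ars∆ was at 0.061 at 2.5 hr, above its partner, and at -0.27 at 3.5 hr.

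On either side the difference was smaller and did not pass. The ARS304 window (20001 to 30000), an origin seldom used, had -0.13 (SE 0.029, adjusted p = 0.11), and the window at 90001 to 100000 had -0.12 (SE 0.027, adjusted p = 0.11). The ARS307 window (100001 to 110000) had -0.098 (SE 0.025, adjusted p = 0.16), and the centromere window with ARS308 (110001 to 120000) had -0.10 (SE 0.026, adjusted p = 0.16). All 3 pairs were lower in each of these 4 windows. The silent HML locus, in the window at 10001 to 20000, differed by -0.038 (SE 0.028, adjusted p = 0.998), with the DDK OP pair higher. On the right arm the ARS309 window (130001 to 140000) differed by -0.026 (SE 0.026, adjusted p = 0.998) and the ARS310 window (160001 to 170000) by -0.020 (SE 0.027, adjusted p = 0.998).

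**Figure D4:**
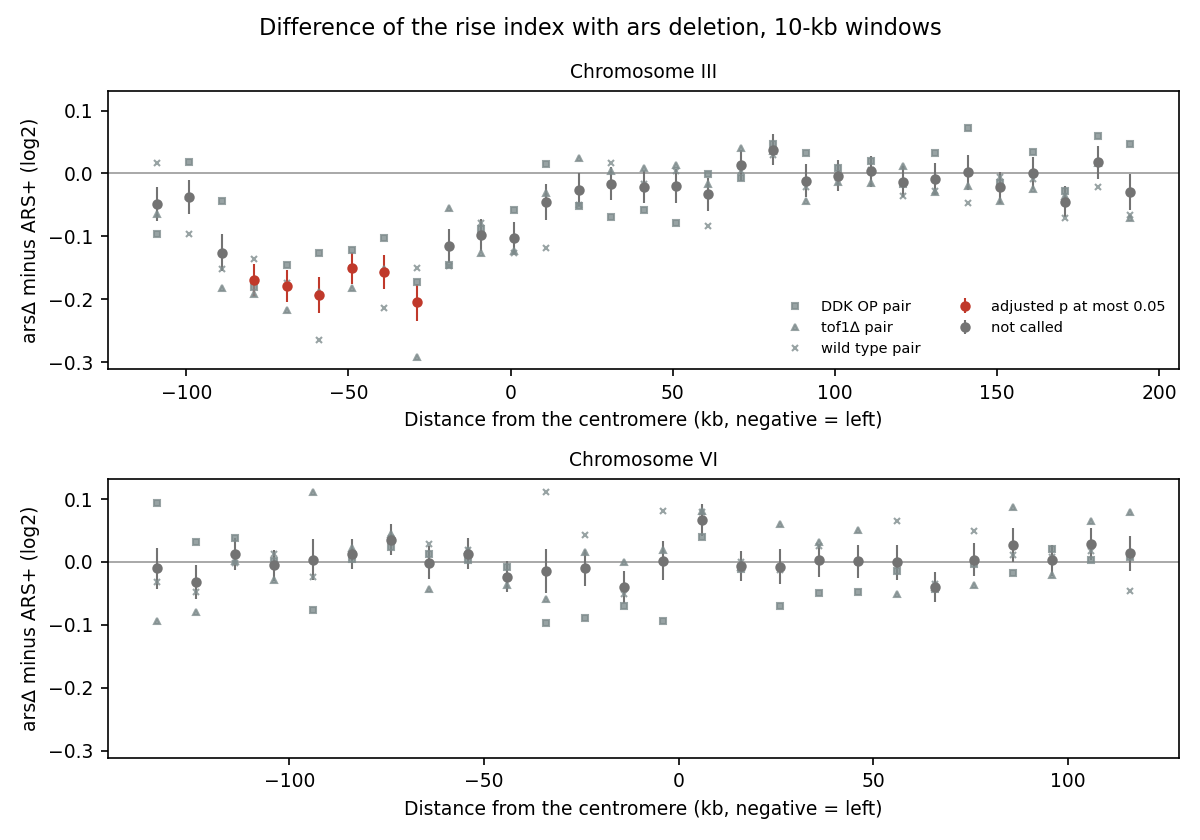
Difference in rise, ars∆ minus ARS+ (log2), for the 10-kb windows of III (top) and VI (bottom) against distance from the centromere in kb. Circles with bars are the limma estimate ± SE, red where called, and small grey symbols are the 3 pairs; the 6 called windows form 1 run on the left arm of III.

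The calls changed with the pairs in the fit. Without the wild type pair limma called 0 windows on III and VI. The estimates in the 6 windows then lay between -0.13 and -0.23, all still negative. Fewer cultures were then in the fit, and why the calls were lost was not tested. Without the tof1∆ pair the window at 60001 to 70000 did not pass (adjusted p = 0.065). The window at 80001 to 90000 did not pass when 3 hr alone was set against 1 hr (-0.13, adjusted p = 0.12).

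Counts over pairs and cultures used the same rise values as the limma fit, so they describe the windows and are no separate support for the calls. The rise was lower in ars∆ in all 3 pairs in 13 of 31 windows of III and 4 of 26 of VI, against 11.2% of windows in the genome. Of the 13, 8 were among the 10 of the left region and 5 among the 21 from 100 kb on. The rise was higher in all 3 pairs in 1 window of III and 5 of VI, against 11.9% in the genome. All ars∆ cultures lay below all ARS+ cultures in 11 windows of III, 8 of them in the left region, and in 1 window of VI, against 4.43% in the genome. All ars∆ cultures lay above all ARS+ cultures in 1 window of III and 2 of VI, against 3.75%. Among all 1174 windows of a culture, the 10% with the lowest rise took in 8, 10 and 5 of the 10 left-region windows in DDK OP, tof1∆ and wild type ars∆. In the 3 ARS+ cultures they took in 0.

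On chromosome VI no window was called, and the differences ran from -0.040 to 0.067. The highest, at 150001 to 160000 just right of the centromere, averaged 0.092 ± 0.011 in ars∆ and 0.025 ± 0.025 in ARS+ (SD, n = 3 each). Limma gave it an unadjusted p of 0.019 and an adjusted p of 0.92. It was the only window of VI with an unadjusted p under 0.05, where 3.92% of windows in the genome had one.

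The difference along the whole of III had a similar shape in the 3 backgrounds, but less so within its parts. Over its 31 windows, the ars∆ minus ARS+ profiles correlated with r = 0.70 between the DDK OP and tof1∆ pairs, 0.59 between DDK OP and wild type, and 0.79 between tof1∆ and wild type. Over the 26 windows of VI the values were -0.26, -0.23 and 0.0025. Within the 10 windows of its first 100 kb III gave 0.58, 0.26 and 0.49, and from 100 kb on 0.19, 0.14 and 0.65. These pairs share no culture, but adjacent windows are not independent, so the correlations are given as descriptions.

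Over the first 100 kb the ars∆ profile sloped down towards the centromere relative to ARS+, but much less so when the stretch was taken to 120 kb. The slope of the rise per 10 kb was -0.0014 in DDK OP ars∆ against 0.011 in DDK OP ARS+. In tof1∆ it was -0.0014 in ars∆ against 0.0034 in ARS+, and in wild type -0.013 in ars∆ against -0.0015 in ARS+. The paired difference was -0.0097 ± 0.0042 (SD, n = 3 pairs, lower in 3 of 3, exact p = 0.25, the smallest possible). Over the first 120 kb it was -0.0021 on average, and in the tof1∆ pair the slopes were nearly equal, 0.0030 in ars∆ against 0.0033 in ARS+.

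The edge of the affected stretch was read from running means over 5 positions of ars∆ minus ARS+. The lowest value was -0.18 at 85000 in the DDK OP pair, -0.22 at 47500 in the tof1∆ pair and -0.26 at 55000 in the wild type pair. Going right, the running mean had recovered by 50% of that depth at 105000 in DDK OP, 97500 in tof1∆ and 100000 in wild type. It first reached 0 at 127500 in DDK OP, 130000 in tof1∆ and 142500 in wild type, but for the mean of the 3 pairs only at 185000. The 50% points of the 3 pairs thus lay within 7.5 kb of each other, to the left of the centromere window, while the return to 0 was poorly placed. A distance of 7.5 kb is below what a running mean over 5 positions resolves. The DDK OP depth was taken at 85000, beside the unlisted positions 87500 and 90000.

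**Figure D5:**
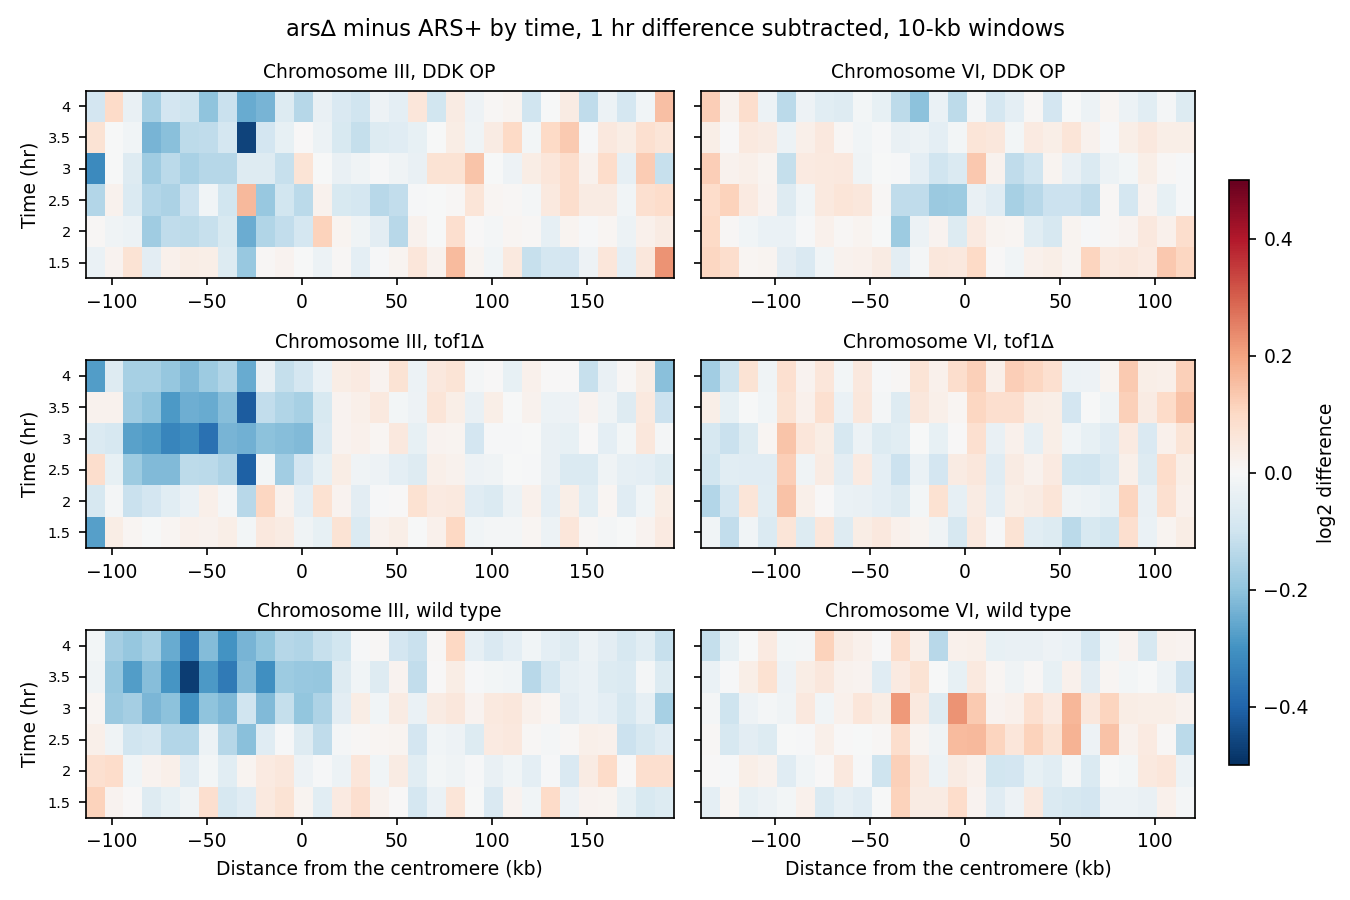
Difference in log2 level, ars∆ minus ARS+, with the 1 hr difference subtracted, by time in hr (vertical) and distance from the centromere in kb (horizontal) for III (left) and VI (right) in each background, blue being lower in ars∆. The left arm of III is blue from 2 hr in DDK OP, from 2.5 hr in tof1∆ and from 2.5 hr in wild type, and VI has no block shared by the 3 backgrounds.

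Far from the deletions, the stretch around ARS316 near the right end of III fell behind in all 6 cultures. The ARS316 window (270001 to 280000) fell by 0.068 ± 0.041 and the window at 260001 to 270000 by 0.053 ± 0.041 (SD, n = 6), with 0 of 6 cultures above 0 in either. In the last window, at 300001 to 310000 with 2 positions, 2 of 6 cultures were above 0. The level of the ARS316 window was 0.073 ± 0.049 at 1 hr, -0.021 ± 0.017 at 3 hr and -0.011 ± 0.074 at 4 hr (SD, n = 6). On this index ars deletion made no detectable difference to the ARS316 window (0.00026, SE 0.025, adjusted p = 0.998).

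Single positions were also searched for local peaks, each higher than every listed position within 15 kb. Of 54 local maxima on III in the 6 cultures, 24 (44.4%) lay within 5 kb of a listed origin or centromere, where 39% of its positions do. On VI 8 of 40 (20%) did, against 31% of positions. The counts are a description, since neighbouring positions and the 6 cultures share peaks.

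DDK OP did not change any window of III or VI detectably against wild type. Limma called 0 windows there, with 5 on III and 3 on VI at an unadjusted p under 0.05. In the genome 0.17% of windows were called and 5.37% had such an unadjusted p. The lowest p was at 1 to 10000 on III, with -0.12 and -0.026 in DDK OP ars∆ and ARS+ against 0.050 and 0.034 in wild type, and a difference of -0.12 (SE 0.034, adjusted p = 0.70). The ARS305 window followed with -0.094 (SE 0.031, adjusted p = 0.78), and then the ARS609 window on VI (250001 to 260000) with -0.086 (SE 0.031, adjusted p = 0.78). The rise was lower in DDK OP in 21 of 26 windows of VI and in 18 of 31 of III, against 586 of 1174 in the genome. On the mean of 1 to 4 hr only 12 of 26 of VI and 10 of 31 of III were lower, against 587 of 1174. Windows of a chromosome share cultures and are not independent, so such counts, also those for tof1∆ below, are descriptions.

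Deletion of TOF1, tested against the same 2 wild type cultures, gave no call on the rise either, with 7 windows on each of III and VI at an unadjusted p under 0.05 and 0% called and 8.09% with such an unadjusted p in the genome. The lowest p was in the ARS305 window, with -0.17 and 0.017 in tof1∆ ars∆ and ARS+ against -0.033 and 0.10 in wild type, a difference of -0.11 (SE 0.031, adjusted p = 0.48). The windows at 280001 to 290000 on III (-0.096, SE 0.030) and at 1 to 10000 on III (-0.10, SE 0.034) had the same adjusted p of 0.48. The rise was lower in tof1∆ in 25 of 26 windows of VI, with a median of -0.054, against 584 of 1174 windows and a median of 0.00020 in the genome. On the mean of 1 to 4 hr only 15 of the 26 were lower, with a median of -0.0045.

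On the mean level of 1 to 4 hr, without subtraction of the 1 hr value, 1 window of III was called for ars deletion and 0 of VI (genome 0.17%). It was the window at 80001 to 90000, with -0.081, 0.0095 and -0.28 in DDK OP, tof1∆ and wild type ars∆ against 0.12, 0.19 and 0.019 in ARS+. Limma gave it -0.23 (SE 0.029, adjusted p = 6.9e-06). The same window was the only one called there for tof1∆ against wild type, at 0.23 (SE 0.036, adjusted p = 0.00019; genome 0.341%), and for DDK OP it did not pass (0.15, SE 0.036, adjusted p = 0.10), nor did any other window of III or VI (genome 0.0852%). On the rise it differed by 0.0081 (SE 0.036, adjusted p = 0.98) between tof1∆ and wild type, so that call rests on levels already present at 1 hr.

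Both chromosomes stood above the genome median before these changes. At 1 hr the mean level of III lay between 0.022 and 0.10 and that of VI between 0.041 and 0.13 in the 6 cultures. What the ratios were divided by is not stated, and the part of the denominator in these 1 hr levels was not tested.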

How the data were processed

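Total DNA of 6 meiotic yeast cultures was sequenced by the authors. Per the submitters' processing notes, BWA (version not given in the sources used here) placed the reads on sacCer2. The authors deposited ratios per position, whose denominator is not stated in the labels or headers. No counts were in the files, so the depth behind a value cannot be stated.

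Each ratio was divided by its sample's median over all positions and taken as log2. Positions were averaged into 10-kb windows (1174 in the genome), and each culture was reduced to the rise or to the mean of 1 to 4 hr. Windows were fitted with limma (version 3.58.1, R 4.3.3; lmFit, eBayes) with terms for background, which pairs ars∆ with ARS+ of 1 background, and ars deletion. The fit had 2 residual and 11.4 prior degrees of freedom. Benjamini-Hochberg adjustment ran over all windows, with a threshold of 0.05. For DDK OP and tof1∆, both cultures of a background stood in as 2 replicates, so p-values measure the spread between 6 cultures only. Region means were tested over 3 pairs by exact sign-flip permutation, two-sided. All replicate numbers are 1, so they pair nothing. The fit was also run on simulated data. Their noise was independent and of equal spread in every window, so that run cannot speak for correlated neighbouring windows.

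Members, regions, the rise and the origin list were chosen with earlier results of these data known. Named are called windows (otherwise the 3 with the lowest p) and windows of listed origins and centromeres; others were named after their values were seen. Alternatives were scaling, window size, times, the background term and left-out pairs. Samples at 0 hr and the sequences of the origins were not analysed here.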

Additional observations from a re-analysis of the deposited data

Results flagged for a closer look

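In the ARS601 window of chromosome VI (30001 to 40000, 4 positions), the rise of DDK OP ARS+, -0.13, lay apart from the other 5 cultures, whose median was -0.082. Such a gap was looked for in 29 sets of 6 cultures, and chance gives about 1 in 20. For the right part of chromosome III the difference in rise, ars∆ minus ARS+, was 0.0066 in the DDK OP pair, -0.010 in the tof1∆ pair and -0.021 in the wild type pair. For chromosome VI it was -0.016 in the DDK OP pair, 0.0077 in the tof1∆ pair and 0.013 in the wild type pair. In both, the DDK OP pair went the opposite way to the other two; with 1 pair per background, this difference was not tested.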

How the results depend on the processing

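Of 91 alternatives to the main results, 80 kept the direction and the side of the threshold, or a count within 1.5 times. For region means and slopes the side of the threshold was fixed in advance. The smallest exact p is 0.25 over 3 pairs and 0.1 for 3 against 3 cultures, so only the direction could change there. The left-region shift kept its sign throughout, between -0.083 on the mean of 1 to 4 hr and -0.19 for 3 hr minus 1 hr. The slope along it was -0.0021 over 120 kb in place of -0.0097. With a replicate block, which is the background term used throughout, 6 windows of III and VI were called for ars deletion on the rise, and without the replicate block 6 as well. That count was 9 in 5-kb windows and ranged from 0 to 8 with a pair left out, 0 being without the wild type pair. On the mean of 1 to 4 hr the count of 1 became 0 without the replicate block, 3 with only full windows and 5 for 2 to 4 hr without subtraction, and lay between 0 and 5 when 1 pair was left out. The tof1∆ count of 0 became 1 on the mean of 1 to 4 hr. The right part of III changed sign, to 0.0055 for 3 hr minus 1 hr, to 0.026 for the mean of 1 to 4 hr and to 0.023 for that of 2 to 4 hr. Leaving out 1 pair, the difference of VI lay between -0.0040 (no wild type pair) and 0.010, and was -0.0012 with no tof1∆ pair. The ARS310 window lay between -0.037 and 0.0089 (no DDK OP pair), and turned to 0.023 for 3 hr minus 1 hr. Leaving out a pair removes samples by construction; otherwise the cause was not tested. A baseline of 1.5 hr, chosen after seeing the data, gave 9 calls. The genome shares of these alternative counts are not given here, so whether added calls are particular to III and VI cannot be told. Of 131 alternatives for single windows, 112 kept their call, 8 lost it, 9 gained it and 2 reversed. Depth is unknown, and 1 culture per strain limits every comparison.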
